A study of Mus musculus with 2 samples.

Results

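The genes described here were 10 members of the SOX family of transcription factors other than Sox2 and Sox3, measured in mouse embryonic stem cells after knockdown of Mll2. They were Sox1 (subgroup SOXB1), Sox4, Sox11 and Sox12 (SOXC), Sox13 (SOXD), Sox9 (SOXE), Sox7, Sox17 and Sox18 (SOXF), and Sox15 (SOXG). Every probe set that the platform annotation assigns to 1 of these symbols alone was taken, which gave 29 of the 45037 probe sets on the array and 10 of 18193 named genes. The members were proposed with the differences between these arrays in view, so the choice counts as selected on the measured difference of Mll2 shRNA minus control shRNA, and these differences are a description that supports no other result.

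The study compared E14 cells infected with a lentivirus expressing a short hairpin RNA (shRNA) against Mll2, on 1 array, with E14 cells infected with a lentivirus expressing a control shRNA, on 1 array. E14 is an established mouse embryonic stem cell line. According to the labels' protocol, infection lasted 24 h and was followed by 5 days of puromycin selection, and total RNA was hybridised to Affymetrix 3' expression arrays. The labels name no individual clone and do not give the hairpin sequence or the number of hairpins. Because each group had 1 array, the differences carry no replicate error and were not tested.

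SOX proteins bind DNA through an HMG box, a domain that bends the double helix, and they usually act together with partner transcription factors. Sox2 acts with Oct4 in the pluripotency network of embryonic stem cells. The other subgroups are known mainly from differentiated lineages, with SOXB1 factors in neural progenitors, SOXC factors in neuronal and mesenchymal progenitors, SOXE factors in cartilage and neural crest, and SOXF factors in endoderm and blood vessels.

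Values are MAS5 signals on the log2 scale, as deposited. Dim values were raised to a floor, the 50th percentile over both arrays together, at 6.02 (log2) or a signal of 64.7. Genes with a probe set above it on either array were called measured, and the brightest probe set by mean level stood for the gene. Where only 1 array was above the floor, the difference to the floor is a lower bound in size. The spread at a gene's level is the scaled median absolute deviation of the differences of the 500 genes nearest in level. It contains real differences as well as noise and does not cover variation between cultures. It was computed after values were raised to the floor, so near the floor it comes partly from bounds and can be too small. Levels of different probe sets were not ranked against each other, because each probe set has its own hybridisation response. A signal summed over a list depends mostly on its brightest probe sets and is no measure of the list as a whole.

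The arrays as a whole had medians of 6.01 in Mll2 shRNA cells and 6.02 in control cells. The excess of 3' over 5' signal, a sign of RNA integrity, was 0.058 for Gapdh in Mll2 shRNA cells and 0.046 in control cells, and for beta-actin it was 0.77 in Mll2 shRNA cells and 0.96 in control cells. All 10 markers of undifferentiated embryonic stem cells were above the floor on both arrays, with a median level of 12.89 in Mll2 shRNA cells and 12.82 in control cells. The name Mll2 has been used for the H3K4 methyltransferase genes Kmt2d and Kmt2b, and which was targeted is not stated in the labels. Kmt2d had a signal of 335 in Mll2 shRNA cells and 736 in control cells, a difference of -1.14 against a spread of 0.33. The difference was -1.02 with spike-in scaling, and the other Kmt2d probe set was below the floor on both arrays. Kmt2b had a signal of 852 in Mll2 shRNA cells and 901 in control cells, a difference of -0.081 against a spread of 0.28, and 0.036 with spike-in scaling.

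Of the 10 SOX genes, 9 were measured, of which 5 exceeded the floor on both arrays and 4 on 1 array only. Sox1 was the 1 member at least 2-fold higher in Mll2 shRNA cells, and Sox13 the 1 member at least 2-fold lower. Over all 11805 measured genes, 1.47% (173 genes) passed 2-fold upward and 0.983% (116 genes) downward, or 2.45% in either direction. Of these differing genes 59.9% were higher, against 62.0% with median centring, 51.1% with quantile normalization, 52.6% with loess and 75.9% with scaling on the bacterial spike-in controls. The spike-in scaling put the median difference of all genes at 0.14, against 0.026 as deposited. The median difference of the 9 measured members was 0.18, with 6 above 0 and 3 below. Over all measured genes, 6314 were above 0 and 5491 below. Sox7, Sox17 and Sox18 were measured only through Mll2 shRNA cells and Sox13 only through control cells, which fixed the signs of these differences. The 5 members above the floor on both arrays had 3 above 0 and 2 below. Their median was also 0.18, because Sox12 was the middle gene of both sets. By probe set, 14 of the 29 were above the floor on both arrays, 6 on 1 array and 9 on neither. Among the 20 measured probe sets, 13 differences were above 0 and 7 below. Sox4 alone gave 6 of the 13 and Sox11 5 of the 7, and probe sets of 1 gene are not independent. The 6 above the floor on 1 array had their sign fixed by that array. Over all 20894 measured probe sets with 1 symbol, 11108 were above 0 and 9786 below. In each direction 1 member probe set reached 2-fold, against 1.34% of all measured probe sets with 1 symbol upward and 0.857% downward.

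**Figure D1:**
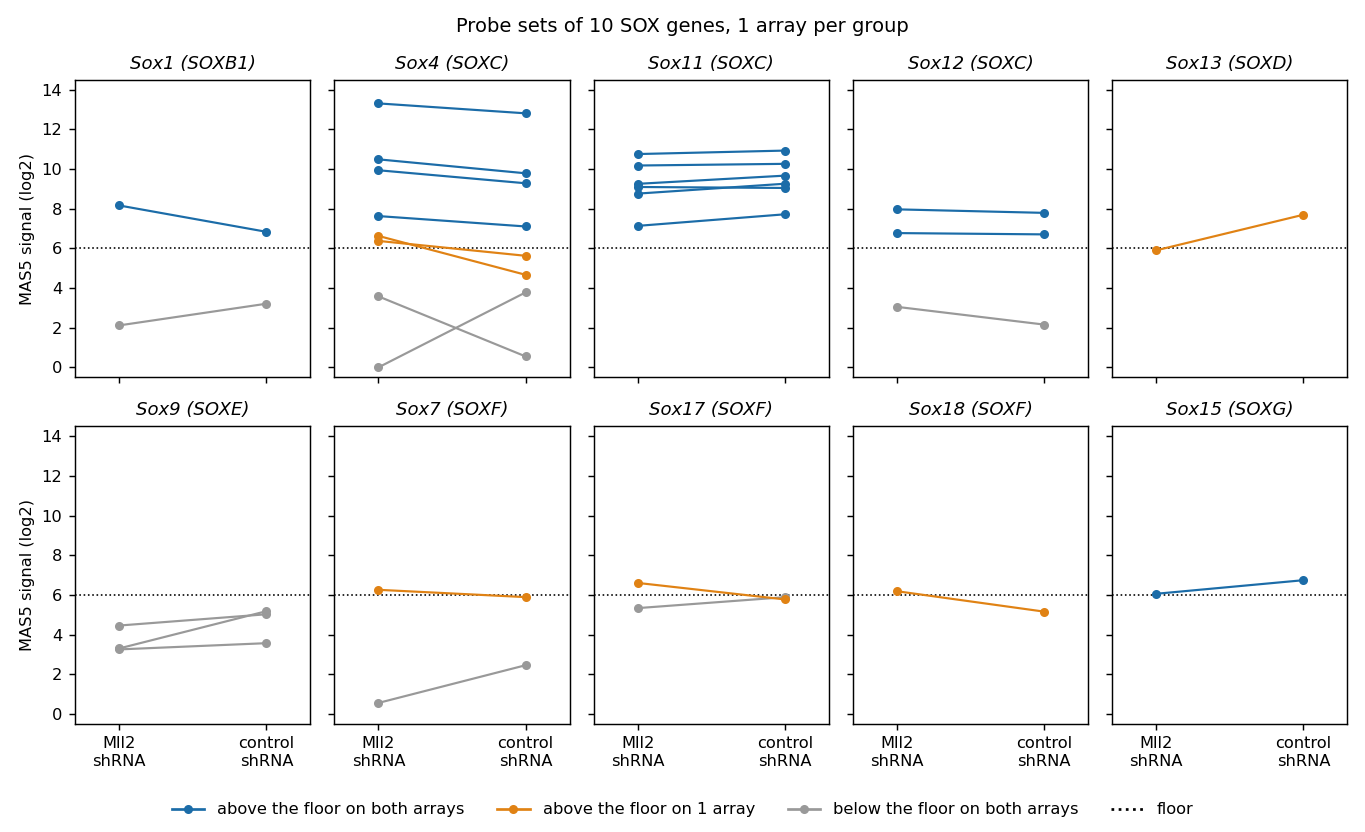
MAS5 signal (log2, vertical axis) of every probe set of the 10 SOX genes in Mll2 shRNA cells and control shRNA cells, 1 panel per gene and 1 line per probe set; the dotted line is the floor of 6.02. The upper Sox1 line lies above the floor and is higher in Mll2 shRNA cells while the lower one stays under the floor, Sox13 crosses the floor, the 6 Sox11 lines and 4 of the 8 Sox4 lines lie above it on both arrays, and the 3 Sox9 probe sets lie below it on both arrays.

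Sox1, a SOXB1 factor of early neural progenitors, was the member with the largest difference upward. Its probe set 1438729_at had a signal of 286 in Mll2 shRNA cells and 114 in control cells. On the log2 scale the levels were 8.16 in Mll2 shRNA cells and 6.83 in control cells. This is a 2.51-fold higher signal, or 1.33 on the log2 scale, against a spread of 0.46 among genes at that level. The difference ran from 1.27 to 1.44 over 4 other scalings of the arrays. The control value was near the floor, so a pseudocount equal to the floor gave 0.97, under 2-fold, and a floor at the 70th percentile left a bound of 0.20. The second Sox1 probe set, 1422205_at, stayed under the floor in both groups, at 2.12 in Mll2 shRNA cells and 3.21 in control cells, and gave no difference. The Sox1 value therefore rests on 1 probe set.

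Neural genes were set beside the Sox1 value. Of 17 neural progenitor and early neuron genes, several of them known targets of SOX1, SOX2, SOX3 or SOXC factors, 12 were measured and no gene passed 2-fold in its brightest probe set, with 6 differences above 0 and 6 below. The summed signal of the measured genes was 4071 in Mll2 shRNA cells and 4038 in control cells. Olig2, Fabp7, Dcx and Neurog2, which mark committed neural cells, were below the floor on both arrays. The largest difference was that of Hes5, a Notch effector of neural progenitors, which had a signal of 122 in Mll2 shRNA cells and 16.3, below the floor, in control cells. Hes5 was thus at least 1.89-fold higher, in a probe set with the suffix _x_at, which marks probe sets that can detect several transcripts, and its other probe set was not measured. Genes named after their values were seen went both ways. Ncam1, a neural adhesion molecule, was at 0.89 against a spread of 0.35, with 1.08 in its second measured probe set. Pax3 had a bound of 0.67 against a spread of 0.46. Map2 was at 0.59 against 0.38, but its 2 other measured probe sets gave -0.35 and -0.14. Zic2 was at -0.68 against a spread of 0.48, Tead2 at -0.49 against 0.27 and Otx2 at -0.48 against 0.34. In a bulk sample, a change in the number of cells of a type and a change in RNA per cell cannot be told apart.

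SOX4, SOX11 and SOX12 form the SOXC subgroup, whose members overlap in function in neuronal and mesenchymal progenitors. They had 17 of the 29 probe sets and most of the measured ones, so their differences could be compared within each gene. Sox4 and Sox12 were higher and Sox11 was lower in Mll2 shRNA cells, and, in the probe set that stood for each gene, only the Sox4 difference exceeded the spread at its level.

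Sox4 was higher in Mll2 shRNA cells in all 6 of its measured probe sets. The brightest, 1433575_at, had a signal of 10129 in Mll2 shRNA cells and 7165 in control cells, a difference of 0.50 against a spread of 0.19 at that level. The signal of 1419156_at was 1434 in Mll2 shRNA cells and 881 in control cells, a difference of 0.70. That of 1419155_a_at was 980 in Mll2 shRNA cells and 622 in control cells, a difference of 0.66. In each of these pairs Mll2 shRNA cells were higher by less than 2-fold. A further probe set, 1449370_at, had a signal of 198 in Mll2 shRNA cells and 137 in control cells, a difference of 0.52. The mean over these 4 probe sets, which exceed the floor in both groups, was 0.60 ± 0.10 (SD over 4 probe sets). In 2 more, 1419157_at and 1455867_at, only Mll2 shRNA cells were above the floor, with bounds of 0.61 and 0.36. The last 2, 1443778_at and 1458332_x_at, stayed under the floor in both groups. Of the 8 probe sets, 4 carry the same transcript accession in the annotation and may share target sequence, and all come from 1 hybridisation per group, so their agreement does not replace replicate cultures. The Sox4 difference ran from 0.50 to 0.62 over every alternative tried.

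Sox11 was above the floor on both arrays in all 6 of its probe sets, and 5 of the 6 were lower in Mll2 shRNA cells. The brightest, 1436790_a_at, had a signal of 1726 in Mll2 shRNA cells and 1948 in control cells, a difference of -0.17 against a spread of 0.27. The signal of 1453125_at was 1156 in Mll2 shRNA cells and 1226 in control cells, a difference of -0.084. That of 1429372_at, which carries the same transcript accession, was 546 in Mll2 shRNA cells and 528 in control cells, a difference of 0.049. These 3 pairs lay within the spread. Another pair sharing a transcript accession gave larger differences: 1429051_s_at had a signal of 610 in Mll2 shRNA cells and 812 in control cells (-0.41), and 1453002_at had 433 in Mll2 shRNA cells and 612 in control cells (-0.50). The dimmest, 1431225_at, had a signal of 140 in Mll2 shRNA cells and 210 in control cells, a difference of -0.58. Probe sets with the same accession thus lay close together, and the mean over all 6 was -0.28 ± 0.25 (SD over 6 probe sets). The value of the brightest probe set was -0.057 with spike-in scaling.

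Sox12, the remaining SOXC gene, had a signal of 250 in Mll2 shRNA cells and 221 in control cells in 1455562_at, a difference of 0.18 against a spread of 0.41. Its second probe set, 1439754_at, had a signal of 109 in Mll2 shRNA cells and 104 in control cells, a difference of 0.065. The other, 1456882_at, stayed under the floor in both groups. The mean of both measured probe sets was 0.12 ± 0.079 (SD over 2 probe sets), and no difference beyond the spread was seen.

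**Figure D2:**
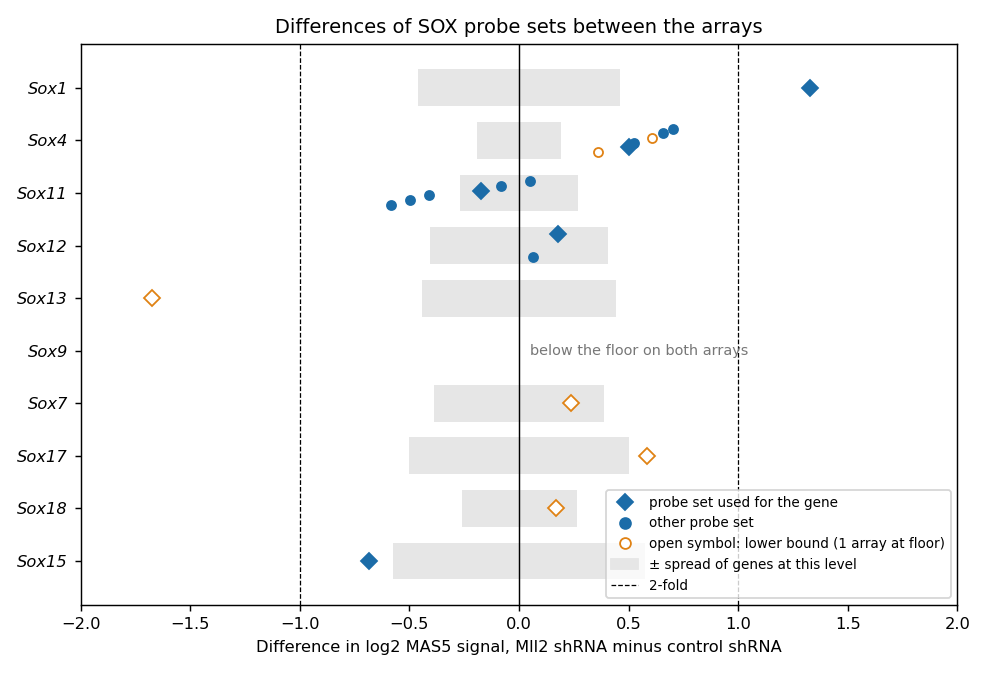
Difference in log2 MAS5 signal, Mll2 shRNA minus control shRNA, of each measured SOX probe set (diamonds, the probe set used for the gene; open symbols, lower bounds with 1 array at the floor), with grey bars for plus and minus the spread of genes at the same level and dashed lines at 2-fold. Sox1 at 1.33 and the Sox13 bound at -1.68 lie beyond the dashed lines, the 6 Sox4 symbols lie together above 0, and the Sox11 symbols run from -0.58 to 0.049.

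Sox13, a SOXD factor known from lymphocyte and neural development, was the member with the largest difference downward. SOXD proteins lack a transactivation domain of their own and are thought to modulate other factors. Its single probe set, 1450191_a_at, had a signal of 59.7, below the floor, in Mll2 shRNA cells and 207 in control cells. Sox13 was therefore at least 3.20-fold lower in Mll2 shRNA cells, a bound of -1.68 against a spread of 0.44. With no floor the difference was -1.79, and with a pseudocount equal to the floor it was -1.13. Over the 4 other scalings the bound ran from -1.71 to -1.62. No second probe set was there to compare, and leaving out probe sets with the suffix _a_at left Sox13 without a value. Of the other SOXD genes, Sox5 was below the floor in all 7 of its probe sets. Sox6 was above the floor in Mll2 shRNA cells only, at 6.63 in Mll2 shRNA cells and 5.50 in control cells in 1427677_a_at, a bound of 0.61, while its second measured probe set gave a bound of -0.090.

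Sox9, the SOXE factor that directs cartilage formation, was below the floor on both arrays in all 3 of its probe sets, so no difference was detectable. The log2 levels were 4.45, 3.30 and 3.25 in Mll2 shRNA cells and 5.02, 5.18 and 3.57 in control cells. The other SOXE genes were also dim. Sox8 was below the floor, and Sox10 was above it in control cells only, with a bound of -0.39 in 1 of 3 probe sets. Of 14 cartilage genes, several of them known SOX9 targets, 6 were measured, 3 above 0 and 3 below. The 3 below 0 were above the floor in control cells only. Among these, Comp, a cartilage matrix protein, was at least 2.06-fold lower in Mll2 shRNA cells. Its single probe set had a signal of 60.9, below the floor, in Mll2 shRNA cells and 133 in control cells. Of 12 neural crest and glial genes, 8 were measured, 5 above 0 and 3 below. Ngfr, the p75 neurotrophin receptor, was 2.34-fold lower, with a signal of 132 in Mll2 shRNA cells and 310 in control cells, and no member of either list was at least 2-fold higher.

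The SOXF genes Sox7, Sox17 and Sox18, which act in endoderm and in endothelial cells, were all near the floor. Each of the 3 was above the floor in Mll2 shRNA cells only. Over all measured genes, 576 were above the floor in Mll2 shRNA cells only and 541 in control cells only.

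Sox17, a factor of definitive and primitive endoderm, had a level of 6.60 in Mll2 shRNA cells and 5.77 in control cells in 1429177_x_at. The Sox17 difference was thus a bound of 0.59 against a spread of 0.50. This probe set too can detect several transcripts by its suffix, and the other Sox17 probe set, 1421657_a_at, stayed under the floor in both groups, at 5.33 in Mll2 shRNA cells and 5.88 in control cells. The Sox17 difference therefore rests on 1 probe set.

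Sox7, which shares roles with Sox17 in primitive endoderm, had a level of 6.26 in Mll2 shRNA cells and 5.89 in control cells in 1416564_at, a bound of 0.24 against a spread of 0.39. Its other probe set, 1432495_at, stayed under the floor in both groups. Sox18, a factor of lymphatic vessel development, had a level of 6.18 in Mll2 shRNA cells and 5.16 in control cells in 1449135_at. Its bound was 0.17 against a spread of 0.26, and with no floor the difference was 1.03. The size of the Sox18 difference thus depended on how low values were treated.

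Genes of the tissues in which SOXF factors act were set beside these values. Of 22 endoderm genes 11 were measured, and 1 was at least 2-fold apart, the endoderm transcription factor Foxa2. Foxa2 had a signal of 601 in Mll2 shRNA cells and 128 in control cells, 4.71-fold higher in its single probe set. In their brightest probe sets, the other 10 measured genes lay between -0.59 and 0.33. Beyond that range, the second measured probe set of Eomes gave -0.92, against 0.18 in its brightest. The 2 other measured Sparc probe sets gave -0.67 and 0.016. Gata4, Hnf4a, Cxcr4, Gsc, Mixl1, Cer1, Pdgfra, Afp, Ttr and Apoa1 were below the floor on both arrays. The summed signal of the measured endoderm genes was 11200 in Mll2 shRNA cells and 12561 in control cells. Sparc alone had 3111 in Mll2 shRNA cells and 4624 in control cells, while 6 of the measured genes were above 0 and 5 below. Of 20 endothelial genes 12 were measured. Tek, the angiopoietin receptor, was 2.19-fold higher, with a signal of 493 in Mll2 shRNA cells and 225 in control cells. Plvap, a protein of endothelial fenestrae, was 2.19-fold lower, with a signal of 80.2 in Mll2 shRNA cells and 176 in control cells. Tie1, Pecam1, Prox1, Vcam1, Erg, Emcn, Dll4 and Mmp7 were below the floor on both arrays. The summed signal of the measured endothelial genes was 3604 in Mll2 shRNA cells and 3519 in control cells. Of these sums, Efnb2 alone gave 1729 in Mll2 shRNA cells and 1670 in control cells. The part of other cell types in the SOX values was not tested.

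Sox15, the single mouse SOXG gene, is known from embryonic stem cells and muscle regeneration. Its single probe set, 1452017_at, had a signal of 66.5 in Mll2 shRNA cells and 107 in control cells. The Sox15 difference was -0.68, or 1.61-fold lower in Mll2 shRNA cells, against a spread of 0.58. The value in Mll2 shRNA cells was barely above the floor of 64.7, and a pseudocount equal to the floor gave -0.39.

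In all, 5 of the 9 measured members, Sox1, Sox4, Sox13, Sox15 and Sox17, differed by more than the spread at their level, as did 33.6% of all measured genes. The spread is computed from these same differences, so the share over all genes follows largely from its definition. The members were chosen with the differences in view, so no excess is read from the 5 of 9. Of these 5, Sox1, Sox4 and Sox15 were above the floor on both arrays, and Sox4 alone had more than 1 measured probe set.

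The other SOX genes included the pluripotency factor Sox2 and its close relatives. Sox2 had a level of 13.64 in Mll2 shRNA cells and 13.57 in control cells, a difference of 0.073 within a spread of 0.15. Sox3, a SOXB1 factor of the epiblast and neural plate, was at -0.89 against a spread of 0.38. Its signal was 211 in Mll2 shRNA cells and 390 in control cells, and its other probe set was below the floor on both arrays. The SOXB1 genes Sox1 and Sox3 thus differed in opposite directions, each in 1 probe set. Sox21, a SOXB2 factor that counteracts SOXB1 factors in neural progenitors, had a signal of 865 in Mll2 shRNA cells and 434 in control cells in 1437059_at. The Sox21 difference was 1.99-fold, just under the 2-fold threshold, against a spread of 0.34, and its second probe set gave 1.38 on the log2 scale. Sry, the testis-determining factor, was above the floor in control cells only, with a bound of -0.22. Sox14, Sox30, Sox5 and Sox8 were below the floor, and of the 6 measured genes of these 10 none passed 2-fold in its brightest probe set.

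SOX proteins share the HMG box with the TCF/LEF factors of Wnt signalling, with which SOXF proteins are known to interact. All 3 measured TCF/LEF genes were below 0, with a median of -0.31, and in the probe sets used Lef1 alone turned positive, at 0.047, with spike-in scaling. The second measured Lef1 probe set gave -0.52. Tcf7l1, a repressor of the pluripotency network, had a signal of 2092 in Mll2 shRNA cells and 2967 in control cells, a difference of -0.50 against a spread of 0.27, and -0.38 in its second probe set. None reached 2-fold.

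**Figure D3:**
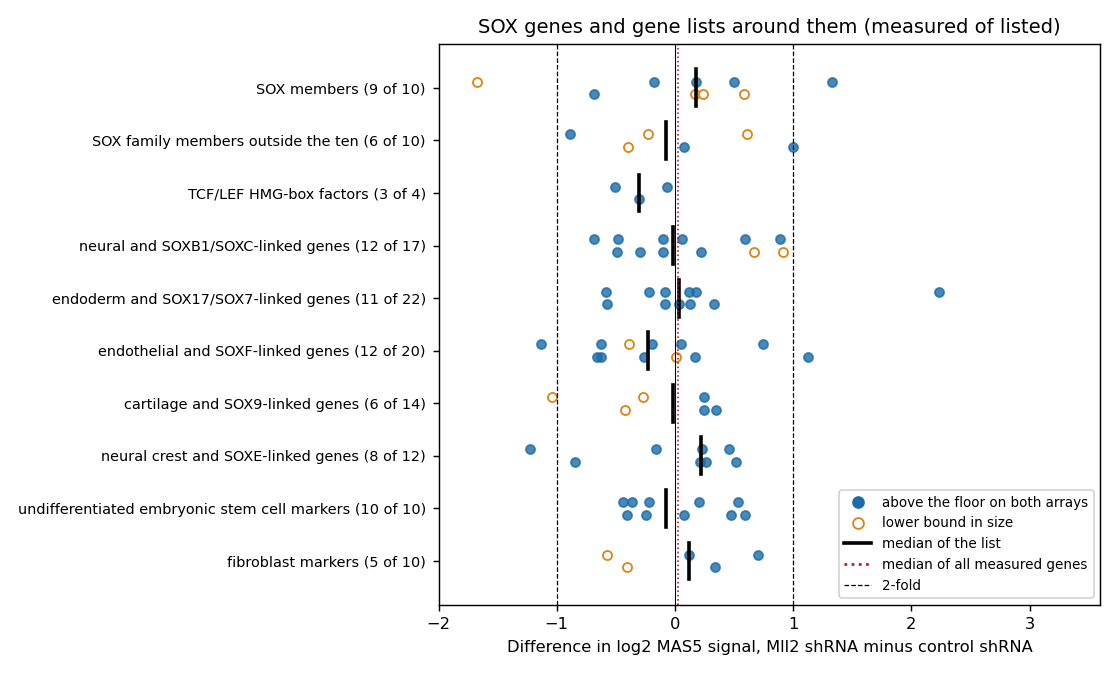
Difference in log2 MAS5 signal, Mll2 shRNA minus control shRNA, of the measured SOX members and of 9 gene lists around them, 1 point per gene (open points, lower bounds), with a black bar for each median and a dotted line for the median of all measured genes, 0.026. The SOX members spread from -1.68 to 1.33 around a median of 0.18, and Foxa2 at 2.23 is the point farthest to the right.

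The medians of the other lists were -0.018 for neural genes, 0.032 for endoderm genes, -0.23 for endothelial genes, -0.013 for cartilage genes, 0.22 for neural crest genes and -0.076 for the SOX genes outside the 10 members. As checks of the culture, the median was -0.074 for markers of undifferentiated embryonic stem cells, with 5 above 0 and 5 below. These markers ran from -0.44 to 0.59, with Klf4 farthest from 0 at 0.59. For fibroblast markers the median was 0.12, with 3 above 0 and 2 below, and the range was -0.58 to 0.70. Col1a2, a fibrillar collagen, was farthest at 0.70, in the only measured one of its 3 probe sets. Fibroblast markers were measured in 5 of 10 cases, their summed signal was 841 in Mll2 shRNA cells and 777 in control cells, and Thy1, Postn, Lum, Dcn and Fap were below the floor on both arrays. Apart from the TCF/LEF median, each of these medians changed sign under at least 1 alternative, so no direction is given for them.

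Some H3K4 methyltransferases of the KMT2 family, but not necessarily the gene targeted here, are known to act at promoters rich in CG dinucleotides. The 250 bases before the start of the SOX genes were therefore taken from the RefSeq annotation of build GRCm38.p6. There, 6 of the 10 members matched. The windows of Sox1 and Sox13, the members past 2-fold in opposite directions, and of Sox15, which had the fewest CG dinucleotides of the matched members, are shown for comparison of their CG content. Each reads 5′ to 3′ on the strand of the gene, with CG in capitals. The Sox1 window is chr8:12395269-12395518 on the plus strand, the Sox13 window chr1:133424213-133424462 on the minus strand and the Sox15 window chr11:69654787-69655036 on the plus strand.
Sox1: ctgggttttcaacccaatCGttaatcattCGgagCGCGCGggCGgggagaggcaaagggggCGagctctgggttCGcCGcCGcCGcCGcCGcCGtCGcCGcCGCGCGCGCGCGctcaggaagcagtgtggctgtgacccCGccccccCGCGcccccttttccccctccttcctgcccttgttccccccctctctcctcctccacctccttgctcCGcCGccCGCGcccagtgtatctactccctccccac
Sox13: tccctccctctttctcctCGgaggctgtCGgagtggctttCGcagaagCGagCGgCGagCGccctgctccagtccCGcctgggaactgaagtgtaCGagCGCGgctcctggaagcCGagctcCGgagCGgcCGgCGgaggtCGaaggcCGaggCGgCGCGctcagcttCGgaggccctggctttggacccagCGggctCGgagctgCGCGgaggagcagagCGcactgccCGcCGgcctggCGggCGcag
Sox15: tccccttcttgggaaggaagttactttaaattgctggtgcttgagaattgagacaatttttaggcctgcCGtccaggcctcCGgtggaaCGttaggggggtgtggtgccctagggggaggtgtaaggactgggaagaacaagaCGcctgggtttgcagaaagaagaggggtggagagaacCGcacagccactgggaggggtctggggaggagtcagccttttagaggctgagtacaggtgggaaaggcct

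The Sox1 window held 29 CG dinucleotides, the Sox13 window 31 and the Sox15 window 5, against a median of 6 over 32851 RefSeq windows of the same length. The Sox12 window held 35, that of Sox11 17 and that of Sox4 11. Fewer CG dinucleotides were found in 93.2% of all windows than in that of Sox1, in 94.8% than in that of Sox13 and in 44.4% than in that of Sox15. The GC content was 71.2% for Sox1, 72.4% for Sox13 and 55.6% for Sox15. Among these members, windows with at least 29 CG dinucleotides belonged to Sox1, which was higher, Sox13, which was lower, and Sox12, within the spread. The Sox15 window, close to the median of all windows, belonged to a gene with a difference of -0.68. Whether CG content is related to the differences was not tested. Motifs were searched as exact letters on both strands. ACAAT, the core of a SOX recognition sequence, was found in the window of 1 member, Sox15, and in 27.7% of all windows. CCAAT, which shares the letters CAAT with it, was found in those of Sox1, Sox4, Sox11 and Sox12, and in 33.8% of all windows. TATAAA was found in 0 of the 6 members' windows and in 12.4% of all windows. A match is a description of the letters only, and the start used in E14 cells was not measured here.

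**Figure D4:**
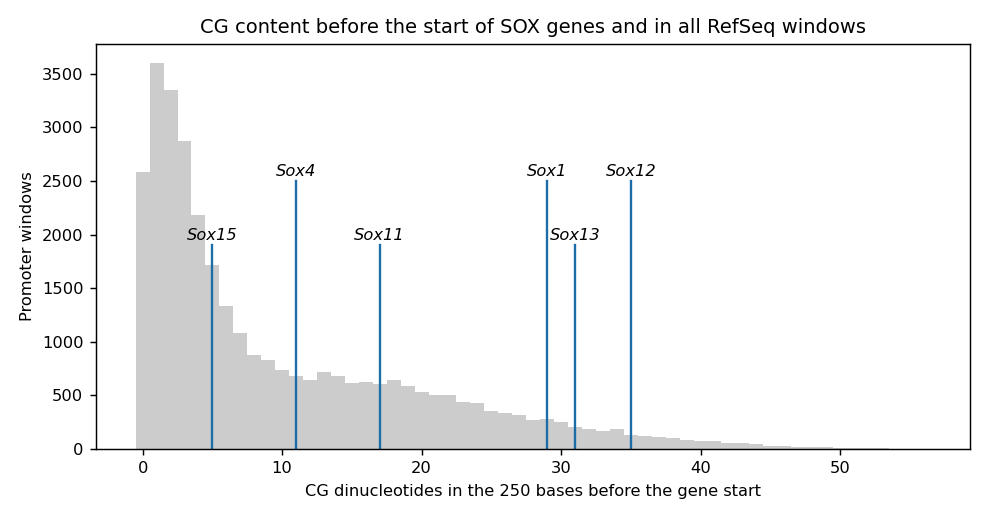
Number of RefSeq promoter windows (vertical axis) by the number of CG dinucleotides in the 250 bases before the gene start (horizontal axis), with a line at the count of each of the 6 matched SOX genes. Sox15 at 5 lies near the median of 6, and Sox1 at 29, Sox13 at 31 and Sox12 at 35 lie in the right tail; line heights carry no value.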

How the data were processed

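The deposited table held log2 values of 45101 probe sets on 2 arrays. The submitters' processing notes name MAS5, by which the authors summarised the probes of each probe set and scaled the arrays. The version is not given in the sources used here. Back on the linear scale, both deposited arrays had the same trimmed mean, 500.0. Mismatch subtraction in MAS5 makes dim probe sets noisy, detection calls were not used here, and the number of arrays limits the precision.

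From these values, 64 control probe sets were set aside. The platform annotation gave 1 symbol for 34945 probe sets, several for 932, and did not list 9160. Symbols were updated by Entrez number to RefSeq (GRCm38.p6) for 34741. The floor, the probe set per gene, the 2-fold threshold and the spread are as described above. Differences are Mll2 shRNA minus control shRNA, as log2. Arrays were grouped by the labelled treatment, and no test was run. The SOX members and gene lists were chosen with earlier results of these data known. The rule for names took all members with every probe set, Kmt2b and Kmt2d, and the other SOX genes. From each list it took up to 3 measured genes at least 2-fold apart, or else the one with the largest difference. Beyond this rule, further genes of the neural, endoderm, endothelial and TCF/LEF lists were named after their values were seen. In some lists the genes below the floor were named too.

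Alternatives were median centring, quantile normalization, loess, spike-in scaling on 18 probe sets (mean difference -0.12), no floor or one at the 30th or the 70th percentile, averaging over probe sets, a pseudocount equal to the floor, omitting suffixes _s_at, _x_at and _a_at, and thresholds of 1.5-fold and 3-fold. The calculation was tested on simulated data, with known changes added only to genes well above the floor. The simulated noise was smaller than the spread at the members' levels, so the simulation does not cover members near the floor. The software was statsmodels 0.14.6, pandas 2.3.3, numpy 2.4.6 and matplotlib 3.10.9 under Python 3.11.15.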

Additional observations from a re-analysis of the deposited data

How the results depend on the processing

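Over the 10 alternatives that give differences, none of the 9 member differences changed sign wherever a value was left. Most of these alternatives could not reverse a sign. Another floor, no floor or a pseudocount cannot reverse the difference of a given probe set. For Sox1, Sox7, Sox13, Sox15, Sox17 and Sox18, averaging over probe sets or omitting suffixed ones gave the same value or none. Only the 4 other scalings therefore bear on the signs of these 6 genes. Sox13, Sox7, Sox15, Sox17 and Sox18 had none at the 70th-percentile floor, and Sox13 and Sox17 none without suffixed probe sets. The count of members at least 2-fold higher was 2 when the floor was the 30th percentile, 2 with no floor and 2 at a 1.5-fold threshold, and 0 at the 70th-percentile floor, 0 with a pseudocount and 0 at 3-fold. The count lower was 2 at 1.5-fold, 0 at the 70th-percentile floor and 0 without suffixed probe sets. Over all measured genes, higher and lower counts were 494 and 482 at the 30th-percentile floor and 50 and 38 at the 70th. They were 1753 and 1744 with no floor, 87 and 70 with a pseudocount, and 144 and 90 without suffixed probe sets. They were 873 and 553 at 1.5-fold, and 27 and 18 at 3-fold. At the 30th-percentile floor 10 members and 15337 genes were measured, at the 70th 4 and 8255, and with no floor 10 and 18193. Without suffixed probe sets 7 members and 10223 genes were measured, and with a pseudocount or another threshold 9 and 11805. A lower floor lets dim probe sets in, and a higher one leaves fewer genes. The median of the members ran from 0.10 to 0.29.

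List medians that changed sign were those of the other SOX genes (0.011 with spike-in scaling, 0.073 with either other floor, 0.091 with no floor), neural genes (0.099 with spike-in scaling, 0.0026 at the 30th-percentile floor, 0.014 over probe sets), endoderm genes (-0.0027 with quantile normalization, -0.0056 with loess, -0.083 at the 70th-percentile floor, -0.026 with no floor, -0.0998 over probe sets), endothelial genes (0.090 at the 70th-percentile floor), cartilage genes (0.073 with spike-in scaling, 0.078 at the 70th-percentile floor, 0.25 without suffixed probe sets), neural crest genes (-0.029 at the 70th-percentile floor), embryonic stem cell markers (0.043 with quantile normalization, 0.018 with loess, 0.044 with spike-in scaling) and fibroblast markers (-0.16 without suffixed probe sets). The cause was not tested. No paired analysis was possible because each group has 1 array.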
